A study of Mus musculus with 6 samples.

Results

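The 40 genes described here are interferon-stimulated genes, the transcripts that type I and type II interferons raise in most cells. They were taken by symbol from a list of 40 names, through their NCBI Gene numbers, and all 40 had a row among the 17567 genes of the count files. Bone marrow of C57BL/6 mice, labelled male and aged 6 weeks, was cultured with rmGM-CSF (20 ng/mL), rmIL-4 (10 ng/mL) and 10% FBS, and immature dendritic cells (imDCs) were collected on day 6 and purified on CD11c magnetic beads. The treated group was then kept with hydrogen peroxide (H2O2) at 100 µM for 24 h to impose oxidative stress; the other group is labelled control. Both groups share the culture up to day 6, and no genetic change is stated. No time after day 6 is stated for the control group, so whether the groups had equal time in culture is not known. There are 3 samples per group in the labels, which do not state whether each came from its own mouse or dish, so p-values here reflect spread that may be technical.

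Interferons bind receptors that activate kinases of the Janus family, and these switch on transcription factors in the cytoplasm. A complex that holds STAT2 and IRF9 binds the interferon-stimulated response element in promoters, and the type II pathway acts through the gamma-activated site. The induced proteins detect viral nucleic acids, block translation and replication, modify other proteins and attack membranes around pathogens. Dendritic cells are known to keep a low standing level of this program before any infection.

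Depth was nearly equal, with 16232604 to 16672491 estimated counts in a library. The values of H2O2 replicate 3 equalled those of H2O2 replicate 1 in all 17567 rows, so the pair was counted as 1 library and 5 libraries remained, 2 with H2O2 and 3 controls. These parted in a way the treatment does not explain. The Y-linked genes Ddx3y, Eif2s3y, Kdm5d and Uty summed to 1608 counts in H2O2 replicate 1 and 1756 in control replicate 1, called set A here. They summed to 7 counts in H2O2 replicate 2 and to 2 and 5 counts in control replicates 2 and 3, called set B here. The counts of the 3 set B libraries thus go against the label of male mice. Of the 8 dendritic cell markers listed, Itgax, the CD11c gene, was at 1473 to 2177 CPM and Cd74, the invariant chain of MHC class II, at 2243 to 3136 CPM. Flt3 was scarce, at 122 and 218 counts in H2O2 and control replicate 1, and 22 counts in H2O2 replicate 2 against 59 and 61 in control replicates 2 and 3. Cd209a was at 0 counts in both H2O2 libraries, against 0, 6 and 1 counts in control replicates 1, 2 and 3. Because of the sets, all comparisons below carry a term for the set, and the values within each set are given beside them. CPM is the gene's count as a share of the library size, adjusted by TMM factors. Of 7 tested dendritic cell markers 4 (Cd74, H2-Ab1, Flt3 and Zbtb46) were called lower with H2O2, against 4.61% of all tested genes.

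With H2O2, 3 of the 40 interferon-stimulated genes were called higher and none lower, namely Slfn5, Oas1a and Ifi204. The call is a p-value of 0.05 or less from edgeR's quasi-likelihood test after Benjamini-Hochberg adjustment. That is 7.5% of the genes, against 3.93% of all 12209 tested genes called higher, 4.61% called lower and 8.54% called either way. All 40 genes passed the filter on low counts, and 12 (30%) had an unadjusted p under 0.05, against 27.8% of all tested genes. Their log2 changes, H2O2 minus control, ran between -0.40 and 1.13 with a median of 0.25, against a median of 0.009 over all tested genes. RNA pooled from purified cells cannot tell a change in the share of cells expressing a gene from a change in its RNA per cell. Without the set term no gene was called in the 40 or in all 12209 (0% called) by edgeR; 2 of the 40, Oas1a and Trim30a, had an unadjusted p under 0.05, against 6.99% of all tested genes. Leaving out H2O2 replicate 2 leaves H2O2 replicate 1 against control replicate 1, a single library each; none of the 40 was then called, against 0.00799% of all genes then tested. Without the filter on low counts none of the 40 was called, against 0.622% of all genes then tested.

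The larger contrast lay between the sets. In the same fit 21 of the 40 genes (52.5%) were called higher in set A, with set B as the base, and 2 (5%) lower, against 19.1% and 16.9% of all tested genes (36.0% either way). At least 2-fold higher in set A and called were 14 of the 40 (35%), against 5.98% of all tested genes. The median log2 difference, set A minus set B, was 0.355 over the 40 genes and -0.003 over all. Every set A library stood above every set B library for 22 of the 40 (55%), against 25.8% of all tested genes, and below for 4, against 26.1%. The sets were defined from Y-linked genes alone, none of them among the 40.

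**Figure D1:**
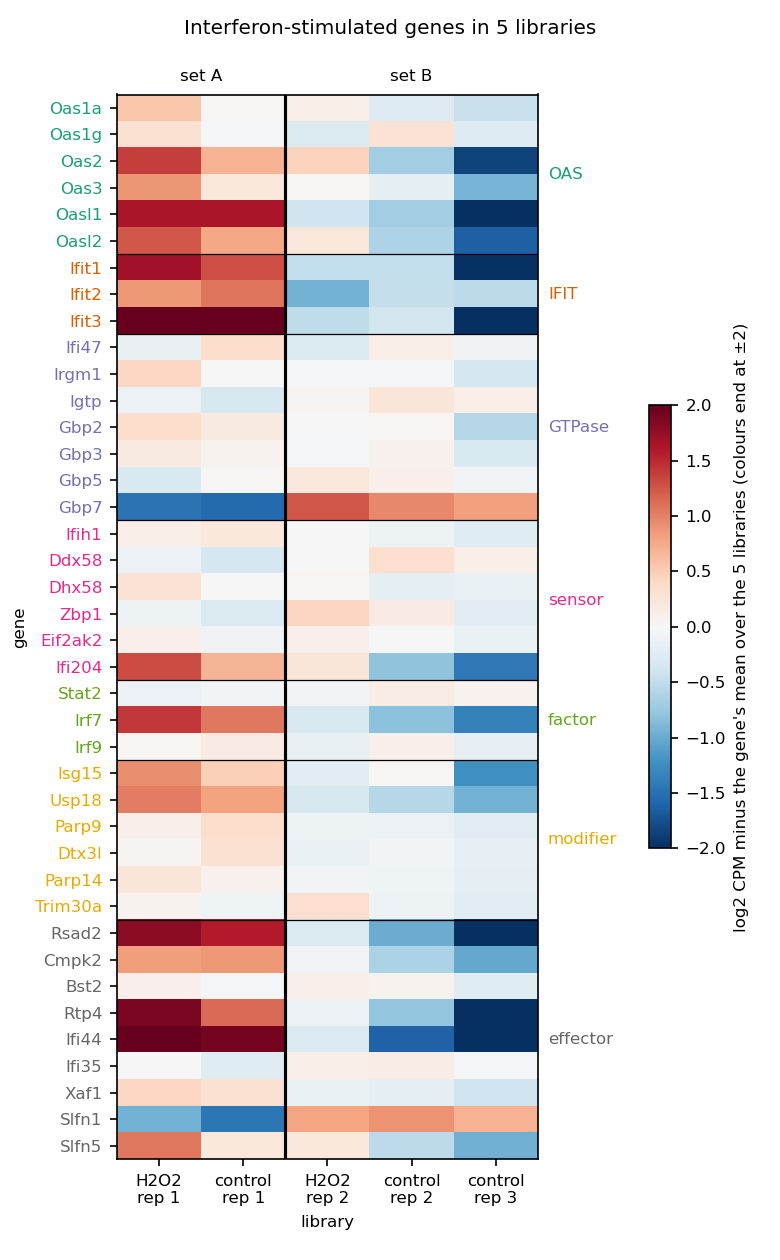
Level of the 40 genes (rows, by group) in each of the 5 libraries (columns), as log2 CPM minus the gene's mean over the libraries, with set A left and set B right of the line. The OAS, IFIT and effector rows are mostly red in both set A libraries, Gbp7 and Slfn1 are blue there, and control replicate 3 is below control replicate 2 in 39 rows.

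The promoters of the 40 genes were searched for the sites that interferon-activated factors bind. RefSeq windows (GRCm38.p6) from 250 bases before to 50 bases after an annotated start were found for 32 of the 40, that is all but Oas2, Dhx58, Zbp1, Ifi204, Usp18, Parp9, Parp14 and Rtp4. The core of the interferon-stimulated response element, GAAA, any 2 bases and GAAA on either strand, occurred in 20 of these 32 genes (62.5%), and in 3.99% of the 27025 genes with a window; copies may overlap each other by 4 bases. Per window the shares were 58.3% of 36 and 3.44% of 32851. The gamma-activated site TTCNNNGAA, which reads alike on both strands, occurred in 8 of the 32 genes (25%) and 9.55% of all. Oas1a and Slfn5, both called with H2O2, and Ifit3 and Gbp7, which part the sets in opposite directions, each hold the core, as printed here in capitals from 5′ to 3′ on the gene's strand. The windows are chr5:120907476-120907775 (minus strand) for Oas1a, chr11:82951852-82952151 (plus) for Slfn5, chr19:34583279-34583578 (plus) for Ifit3 and chr3:142530086-142530385 (plus) for Gbp7.
Oas1a: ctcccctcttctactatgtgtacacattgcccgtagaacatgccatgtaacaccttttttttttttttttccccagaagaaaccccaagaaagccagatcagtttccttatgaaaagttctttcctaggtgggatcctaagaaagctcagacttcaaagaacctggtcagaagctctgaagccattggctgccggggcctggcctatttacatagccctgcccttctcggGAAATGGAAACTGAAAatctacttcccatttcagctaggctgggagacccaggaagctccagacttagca
Slfn5: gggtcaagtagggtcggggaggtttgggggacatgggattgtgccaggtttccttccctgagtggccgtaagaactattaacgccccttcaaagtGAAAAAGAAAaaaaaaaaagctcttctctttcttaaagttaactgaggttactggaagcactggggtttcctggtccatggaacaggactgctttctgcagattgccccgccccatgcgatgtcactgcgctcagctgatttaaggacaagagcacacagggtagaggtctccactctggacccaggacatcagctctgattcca
Ifit3: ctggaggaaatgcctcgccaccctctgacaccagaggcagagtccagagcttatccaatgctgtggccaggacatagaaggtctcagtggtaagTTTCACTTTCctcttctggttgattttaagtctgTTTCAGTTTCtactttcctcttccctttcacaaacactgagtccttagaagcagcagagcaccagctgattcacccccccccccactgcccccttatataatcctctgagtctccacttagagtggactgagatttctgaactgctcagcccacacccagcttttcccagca
Gbp7: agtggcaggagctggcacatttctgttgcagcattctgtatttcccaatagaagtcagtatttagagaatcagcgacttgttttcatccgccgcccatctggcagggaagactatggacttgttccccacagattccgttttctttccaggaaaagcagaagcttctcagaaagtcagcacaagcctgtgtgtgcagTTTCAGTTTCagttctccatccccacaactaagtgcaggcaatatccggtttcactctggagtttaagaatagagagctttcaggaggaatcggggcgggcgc

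In Oas1a a pair of overlapping cores lies at -20 to -5 from the start, and the neighbouring Oas1g, which was not called, has the same arrangement at -18 to -3. Ifit3 has 2 separate copies on the opposite strand, at -156 to -147 and -122 to -113, and Gbp7 has 1 at -53 to -44 beside 2 gamma-activated sites. Of the genes called between the sets, Slfn1, Oasl1, Oasl2, Irf7, Ifit2, Ifi44, Cmpk2, Xaf1 and Dtx3l hold no core in their windows. Isg15 holds 3 overlapping copies. A match is a run of letters and not a measured binding site.

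**Figure D2:**
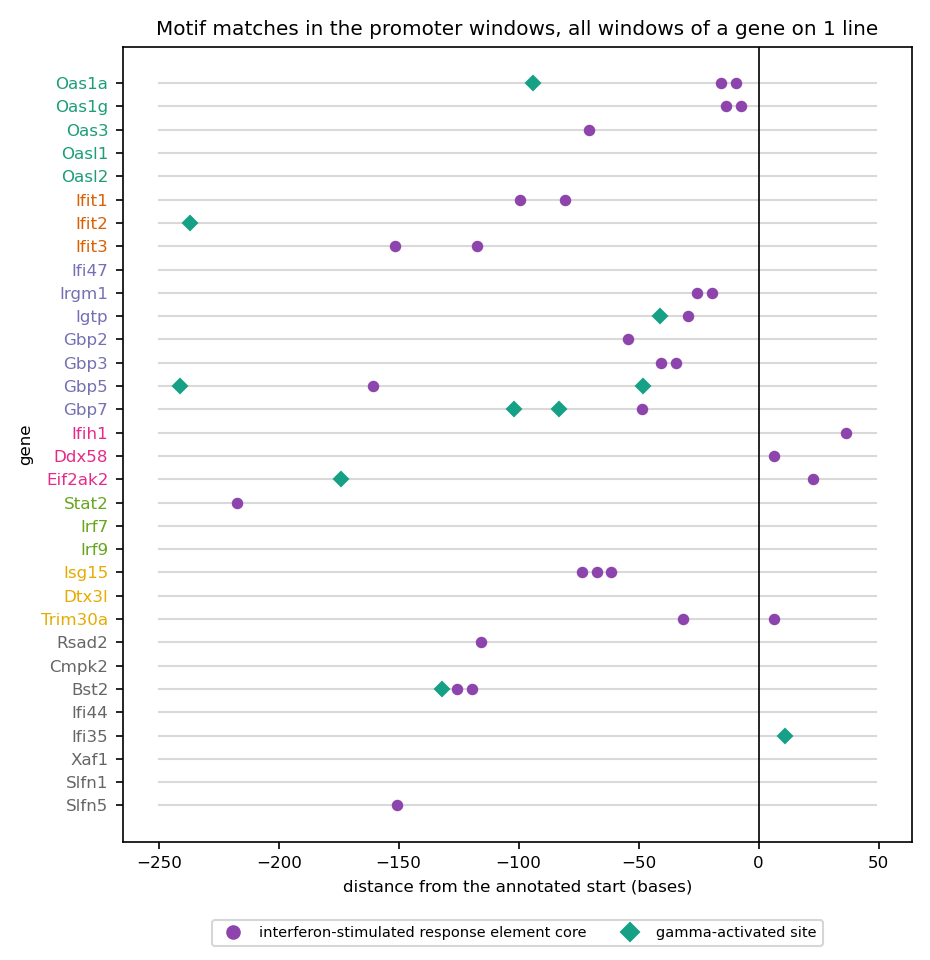
Positions of the response element core (circles) and the gamma-activated site (diamonds) in the promoter windows of 32 genes, as the distance of the match's middle from the annotated start in bases. Of the 32 genes 20 carry at least 1 circle, most of them before the start.

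The OAS family makes 2',5'-oligoadenylate from ATP when it binds double-stranded RNA, which switches on the nuclease RNase L. Oas1a (chromosome 5, 120896256 to 120907544, GRCm38.p6) was at 62.1 and 43.2 CPM in H2O2 and control replicate 1 of set A. In set B it was at 45.8 CPM in H2O2 replicate 2, against 35.5 and 31.2 CPM in control replicates 2 and 3. Every H2O2 library was above every control, and Oas1a rose 1.40-fold (log2 0.49 ± 0.086 SE, adjusted p = 0.0259 by edgeR). Without control replicate 3 its adjusted p was 0.0858. Oas1g, its tandem neighbour, had 21.1 and 16.7 CPM in H2O2 and control replicate 1, and 13.9 CPM in H2O2 replicate 2 against 20.9 and 14.2 CPM in control replicates 2 and 3. The Oas1g groups overlapped, with a log2 change of -0.03 ± 0.22. Of the words of 50 bases in the longest coding transcript of Oas1a, 57.6% also occur in Oas1g, and the counts of both were not whole numbers in 4 of the 5 libraries. The authors' counter may thus have split reads between them. Summed, the pair stood at 83.1 and 59.9 CPM in H2O2 and control replicate 1, and at 59.7 CPM in H2O2 replicate 2 against 56.4 and 45.4 CPM in control replicates 2 and 3.

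Oas2, Oas3, Oasl1 and Oasl2 had positive values that did not pass the test. Oas2 was at 12.1 and 7.50 CPM in H2O2 and control replicate 1, and at 6.35 CPM in H2O2 replicate 2 against 2.84 and 1.28 CPM in control replicates 2 and 3. The H2O2 library was the higher one in each set, and the log2 change was 1.13 ± 0.31 (adjusted p = 0.0700 by edgeR). DESeq2 with the same terms did call Oas2. Oas3 had a log2 change of 0.60 ± 0.19 and Oasl2, which encodes an OAS-like protein with ubiquitin-like domains, one of 0.88 ± 0.28. Oasl1, which in mice restrains translation of Irf7, stood at 17.7 and 17.8 CPM in H2O2 and control replicate 1, and at 4.34 CPM in H2O2 replicate 2 against 3.57 and 1.28 CPM in control replicates 2 and 3. It was thus level across the treatment in set A and 5.68-fold higher in set A (log2 2.51 ± 0.33, adjusted p = 0.00169 by edgeR). Of the 6 OAS genes, 5 were called higher in set A, all but Oas1g, against 19.1% of all tested genes.

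IFIT proteins bind viral RNA with foreign ends and block its translation. None of the 3 IFIT genes was called with H2O2, and all 3 were called higher in set A, against 19.1% of all tested genes. Ifit2, the most abundant, was at 12.4 and 14.2 CPM in H2O2 and control replicate 1, and at 3.50 CPM in H2O2 replicate 2 against 4.83 and 4.70 CPM in control replicates 2 and 3. Both H2O2 values lay below the controls of their own set, with a log2 change of -0.31 ± 0.145 (adjusted p = 0.219 by edgeR). Its difference between the sets was 3.17-fold (log2 1.67 ± 0.14, adjusted p = 2.66e-04). Ifit1 had 8.51 and 6.45 CPM in H2O2 and control replicate 1, and 1.88 CPM in H2O2 replicate 2 against 1.87 and 0.671 CPM in control replicates 2 and 3. Ifit3 had 6.09 and 5.23 CPM in set A, but 0.713 CPM in H2O2 replicate 2 against 0.786 and 0.061 CPM in control replicates 2 and 3. Control replicate 3 held 1 count of Ifit3, so its fold against that library has no precision. The near copy Ifit3b holds 51.2% of the Ifit3 words of 50 bases and was under 0.5 CPM in each library.

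The interferon-induced GTPases coat and break the membranes around intracellular pathogens. None of the 7 was called with H2O2, against 8.54% of all tested genes called either way. An unadjusted p under 0.05 by edgeR was found for 2 of the 7, against 27.8% of all tested genes. Gbp2, the most abundant, had 104.2 and 92.9 CPM in H2O2 and control replicate 1, and 82.0 CPM in H2O2 replicate 2 against 84.2 and 54.9 CPM in control replicates 2 and 3. The groups overlapped (log2 0.21 ± 0.17). Ifi47, an immunity-related GTPase, and Stat2 were the 2 genes of the 40 with every H2O2 library below every control. Ifi47 had 18.7 and 26.5 CPM in H2O2 and control replicate 1, and 17.0 CPM in H2O2 replicate 2 against 22.6 and 19.7 CPM in control replicates 2 and 3. Its log2 change was -0.40 ± 0.12 (adjusted p = 0.0794 by edgeR). Such a separation was seen in 10.7% of all tested genes, and the opposite one in 6 of the 40 (15%) and 13.0% of all. Irgm1, Igtp, Gbp3 and Gbp5 had log2 changes between -0.02 and 0.25.

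Gbp7 was the GTPase gene called between the sets. The genes Gbp5, Gbp7, Gbp3 and Gbp2 lie beside each other on chromosome 3, between 142496934 and 142638008 (GRCm38.p6). Gbp7 stood at 9.76 and 9.24 CPM in H2O2 and control replicate 1, and at 64.1 CPM in H2O2 replicate 2 against 52.7 and 47.9 CPM in control replicates 2 and 3. It was 5.92-fold lower in set A (log2 -2.57 ± 0.11, adjusted p = 3.2e-05 by edgeR), while Gbp2, Gbp3 and Gbp5 differed between the sets by 0.39, 0.19 and -0.22 on the log2 scale and were not called. Its log2 change with H2O2 was 0.27 ± 0.10, short of the threshold (adjusted p = 0.142).

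The sensors detect foreign or misplaced nucleic acids. Ifi204 (chromosome 1, 173747293 to 173767069), a DNA-binding protein of the PYHIN family, rose 1.98-fold with H2O2 (log2 0.98 ± 0.21, adjusted p = 0.0359 by edgeR). It was at 52.9 and 34.4 CPM in H2O2 and control replicate 1, and at 25.3 CPM in H2O2 replicate 2 against 12.3 and 7.99 CPM in control replicates 2 and 3. The H2O2 library was the higher in each set, although control replicate 1 exceeded H2O2 replicate 2. Between the sets Ifi204 was 2.72-fold higher in set A. Without H2O2 replicate 2, which leaves only the set A pair, its log2 change was 0.62 (adjusted p = 0.267). Of its words of 50 bases, 30.2% occur in other genes, mostly Ifi211, and none of its 5 library values was a whole number. Summed with Ifi211 it stood at 77.3 and 56.4 CPM in H2O2 and control replicate 1, and at 38.7 CPM in H2O2 replicate 2 against 21.6 and 13.0 CPM in control replicates 2 and 3.

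No other gene of the sensor group was called with H2O2. Eif2ak2, which encodes the kinase PKR that stops translation on double-stranded RNA, was the most abundant sensor. Its levels were 104.0 and 91.95 CPM in H2O2 and control replicate 1, and 103.8 CPM in H2O2 replicate 2 against 97.9 and 88.5 CPM in control replicates 2 and 3. Every H2O2 library was above every control, by a log2 change of 0.17 ± 0.075 (adjusted p = 0.205 by edgeR), and the sets did not separate (log2 -0.01 ± 0.075). Ifih1 (MDA5), Ddx58 (RIG-I) and Dhx58 (LGP2), the helicases that sense viral RNA, had log2 changes of 0.07 ± 0.091, -0.04 ± 0.12 and 0.24 ± 0.10. Ddx58 was at 46.7 and 40.2 CPM in H2O2 and control replicate 1, and at 50.3 CPM in H2O2 replicate 2 against 63.4 and 54.8 CPM in control replicates 2 and 3, so it stood above the control in set A and below both in set B. Zbp1, which senses Z-form nucleic acids and can start necroptosis, had a log2 change of 0.33 ± 0.15. Apart from Ifi204, no sensor was called between the sets.

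**Figure D3:**
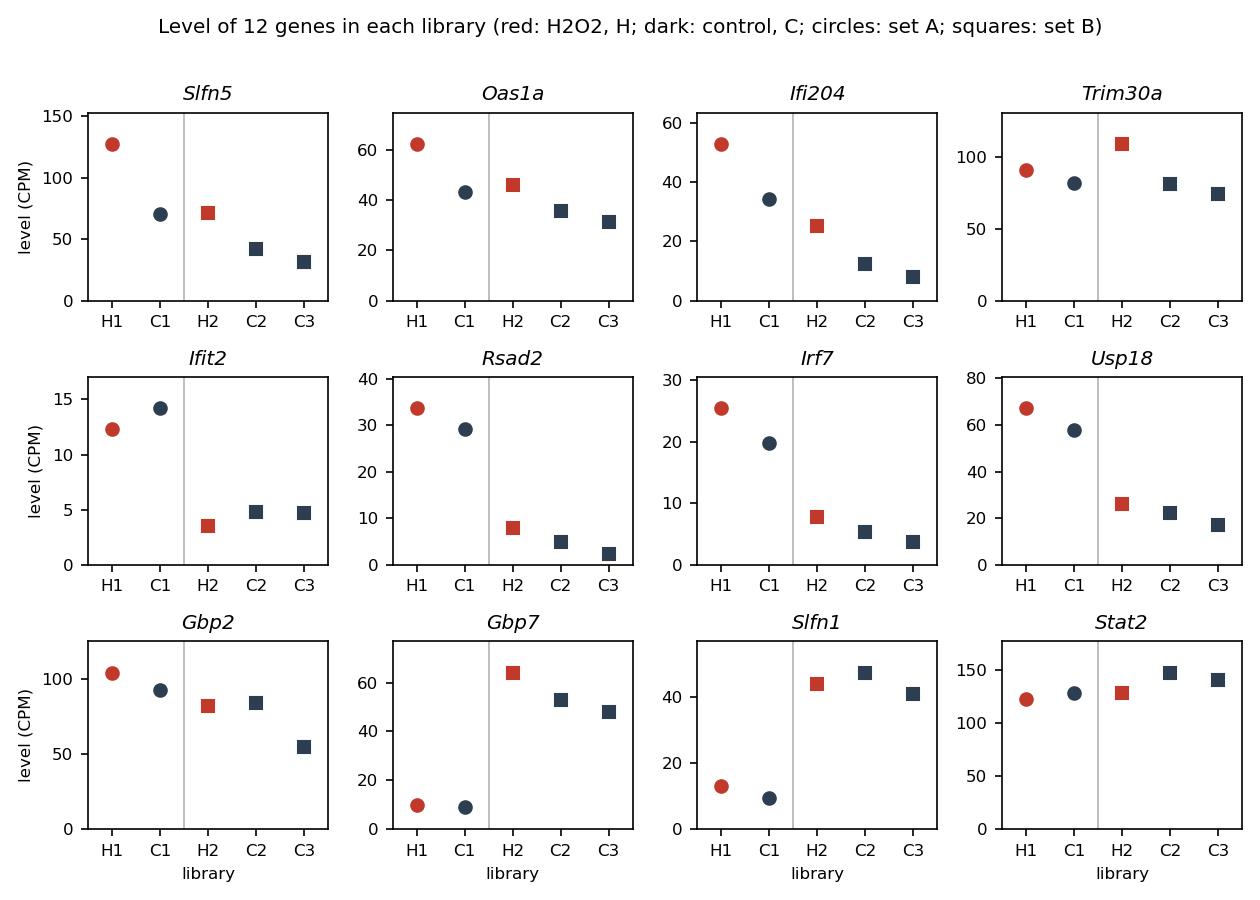
CPM of 12 of the genes in each library, from H2O2 replicate 1 (H1) and control replicate 1 (C1) of set A to H2O2 replicate 2 (H2) and control replicates 2 and 3 (C2, C3) of set B; each point is 1 library. Slfn5, Oas1a, Ifi204, Trim30a, Rsad2, Irf7, Usp18 and Gbp7 show the H2O2 library on top in each set. Both set A values of Ifi204, Ifit2, Rsad2, Irf7, Usp18 and Gbp2 lie above every set B value, and those of Gbp7 and Slfn1 below.

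Of the 3 transcription factors Irf7 was called between the sets. Irf7, which amplifies interferon production, was at 25.4 and 19.7 CPM in H2O2 and control replicate 1, and at 7.71 CPM in H2O2 replicate 2 against 5.38 and 3.72 CPM in control replicates 2 and 3. It was 3.83-fold higher in set A (log2 1.94 ± 0.17, adjusted p = 3.47e-04 by edgeR), and its log2 change with H2O2 was 0.55 ± 0.18 (adjusted p = 0.104). Stat2, the most abundant of the 3, had 122.4 and 128.6 CPM in H2O2 and control replicate 1, and 128.2 CPM in H2O2 replicate 2 against 147.4 and 140.5 CPM in control replicates 2 and 3. Each H2O2 value was below each control by a small margin, with a log2 change of -0.13 ± 0.070 (adjusted p = 0.292). Irf9 had -0.12 ± 0.094. Neither Stat2 nor Irf9 was called between the sets.

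The 6 genes that modify proteins gave no call with H2O2. Between the sets 5 of them, all but Trim30a, were called higher in set A, against 19.1% of all tested genes. Isg15 is a ubiquitin-like protein joined to newly made proteins, and Usp18 removes it and restrains the interferon receptor. Usp18 was at 67.1 and 57.8 CPM in H2O2 and control replicate 1, and at 26.3 CPM in H2O2 replicate 2 against 22.3 and 17.1 CPM in control replicates 2 and 3. It stood 2.76-fold higher in set A (log2 1.47 ± 0.12) with a log2 change of 0.32 ± 0.12 with H2O2 (adjusted p = 0.150 by edgeR). Isg15 was scarce, at 8.10 and 5.93 CPM in H2O2 and control replicate 1, and at 3.69 CPM in H2O2 replicate 2 against 4.35 and 1.83 CPM in control replicates 2 and 3. Parp14, an ADP-ribosyl transferase and the most abundant of the 40 genes by CPM, had 170.2 and 152.7 CPM in H2O2 and control replicate 1, and 139.1 CPM in H2O2 replicate 2 against 135.5 and 125.7 CPM in control replicates 2 and 3. Its log2 change was 0.12 ± 0.071. Parp9 and Dtx3l, partners in one complex that share a bidirectional start, had -0.07 ± 0.093 and -0.12 ± 0.083. Their ends overlap, and without a stated strand setting reads from the overlap cannot be told apart. Trim30a, which limits inflammatory signalling in mice, was at 91.1 and 81.7 CPM in H2O2 and control replicate 1, and at 108.9 CPM in H2O2 replicate 2 against 80.9 and 74.3 CPM in control replicates 2 and 3. All H2O2 values lay above all controls, and the change fell short of the threshold (log2 0.35 ± 0.095, adjusted p = 0.0689).

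Slfn5 had the lowest adjusted p of the 40. Schlafen 5 (chromosome 11, 82951349 to 82964850) is a nuclear protein that can repress transcription. It was at 127.3 and 70.9 CPM in H2O2 and control replicate 1, and at 71.0 CPM in H2O2 replicate 2 against 42.4 and 31.2 CPM in control replicates 2 and 3. H2O2 replicate 2 exceeded control replicate 1 by little (70.99 and 70.85 CPM), so the groups did not overlap, and the increase was 1.87-fold (log2 0.90 ± 0.12, adjusted p = 0.0182 by edgeR). The log2 ratio was 0.845 within set A and 0.947 within set B. Between the sets Slfn5 was 1.86-fold higher in set A. On the set A pair alone, without H2O2 replicate 2, the log2 change was 0.84 with an adjusted p of 0.147. The antisense gene Slfn5os holds 7.88% of its words of 50 bases, and without a stated strand setting their reads cannot be told apart.

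Slfn1, a schlafen gene of the same chromosome (83116820 to 83122670) known in mice for restraining T cell growth, ran opposite to Slfn5 between the sets. It had 13.1 and 9.30 CPM in H2O2 and control replicate 1, and 43.9 CPM in H2O2 replicate 2 against 47.4 and 40.9 CPM in control replicates 2 and 3. It was 4.04-fold lower in set A (log2 -2.02 ± 0.15, adjusted p = 1.60e-04 by edgeR), and its log2 change with H2O2 was 0.16 ± 0.14.

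Rsad2 encodes viperin, which makes a chain-ending nucleotide from CTP, and Cmpk2 beside it supplies nucleotides. Rsad2 was at 33.6 and 29.2 CPM in H2O2 and control replicate 1, and at 7.90 CPM in H2O2 replicate 2 against 4.89 and 2.26 CPM in control replicates 2 and 3. The set difference was 6.10-fold (log2 2.61 ± 0.29, adjusted p = 8.30e-04 by edgeR), and the log2 change with H2O2 was 0.62 ± 0.30 (adjusted p = 0.229). Cmpk2 was 2.52-fold higher in set A, Rtp4, a chaperone of receptors, 4.64-fold, and Xaf1, which promotes cell death, 1.49-fold. Ifi44 was the scarcest of the 40, with 43 and 36 counts in H2O2 and control replicate 1, and 7 counts in H2O2 replicate 2 against 3 and 2 in control replicates 2 and 3. Bst2, tetherin, holds budding virus at the cell surface and was the highest of the 40 per length, at a mean of 44.1 CPM per kb of exon. It had 42.6 and 38.8 CPM in H2O2 and control replicate 1, and 42.6 CPM in H2O2 replicate 2 against 41.8 and 33.4 CPM in control replicates 2 and 3. Every H2O2 value was above every control by a log2 change of 0.16 ± 0.11 (adjusted p = 0.384). Ifi35, a scaffold protein of interferon signalling, had 0.15 ± 0.11, and neither Bst2 nor Ifi35 was called between the sets.

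**Figure D4:**
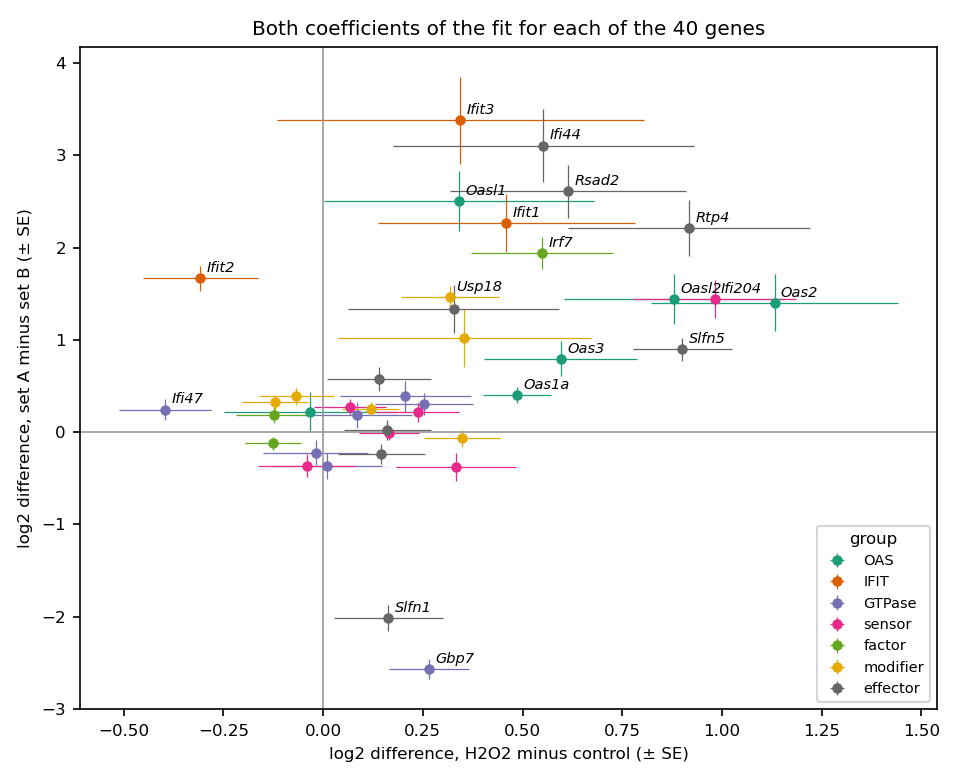
Log2 difference of H2O2 minus control (x axis) against that of set A minus set B (y axis) for each of the 40 genes, with 1 SE either way, from a single fit of 5 libraries. Most genes lie within 0.6 of 0 on the x axis, while the y axis runs from -2.57 (Gbp7) to 3.38 (Ifit3).

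Read within each set, 26 of the 40 genes had a higher value with H2O2 in both sets, where 32.9% of all tested genes did. In set A alone 30 did, against 50.9% of all, and in set B alone 31, against 49.4%. The median log2 ratio was 0.21 in set A, 1 library against 1, and 0.22 in set B, 1 library against the mean of 2, with no test of their own. In set B, H2O2 replicate 2 was above both controls for 25 genes, between them for 9 and below both for 6, against 41.7%, 16.8% and 41.5% of all tested genes. For 20 genes (50%) it was above both and the set A pair had the same direction, against 28.5% of all tested genes; the opposite held for 3, against 28.0%. The difference of the H2O2 change between the sets was tested as an interaction. It passed for 0 of the 40 genes by edgeR, against 0.0164% of all tested genes, and 4 (10%) had an unadjusted p under 0.05, against 13.7% of all tested genes. Those 4 were Gbp5, Ddx58, Trim30a and Parp9. That fit has 1 residual degree of freedom.

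The controls of set B differed in the level of these genes. Control replicate 2 stood above control replicate 3 for 39 of the 40 genes (97.5%), all but Dhx58, against 49.1% of all tested genes. The median log2 difference of control replicate 2 minus control replicate 3 was 0.33 over the 40 genes and -0.003 over all. The gap was 1.12 for Rsad2, 1.01 for Oasl2, 1.15 for Oas2 and 0.19 for Oas1a on the log2 scale. For 22 of the 40 genes (55%) the change with H2O2 in set B was larger than this gap, against 68.2% of all tested genes. The 40 genes share their libraries and are not replicates, so these counts describe the libraries and carry no test.

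**Figure D5:**
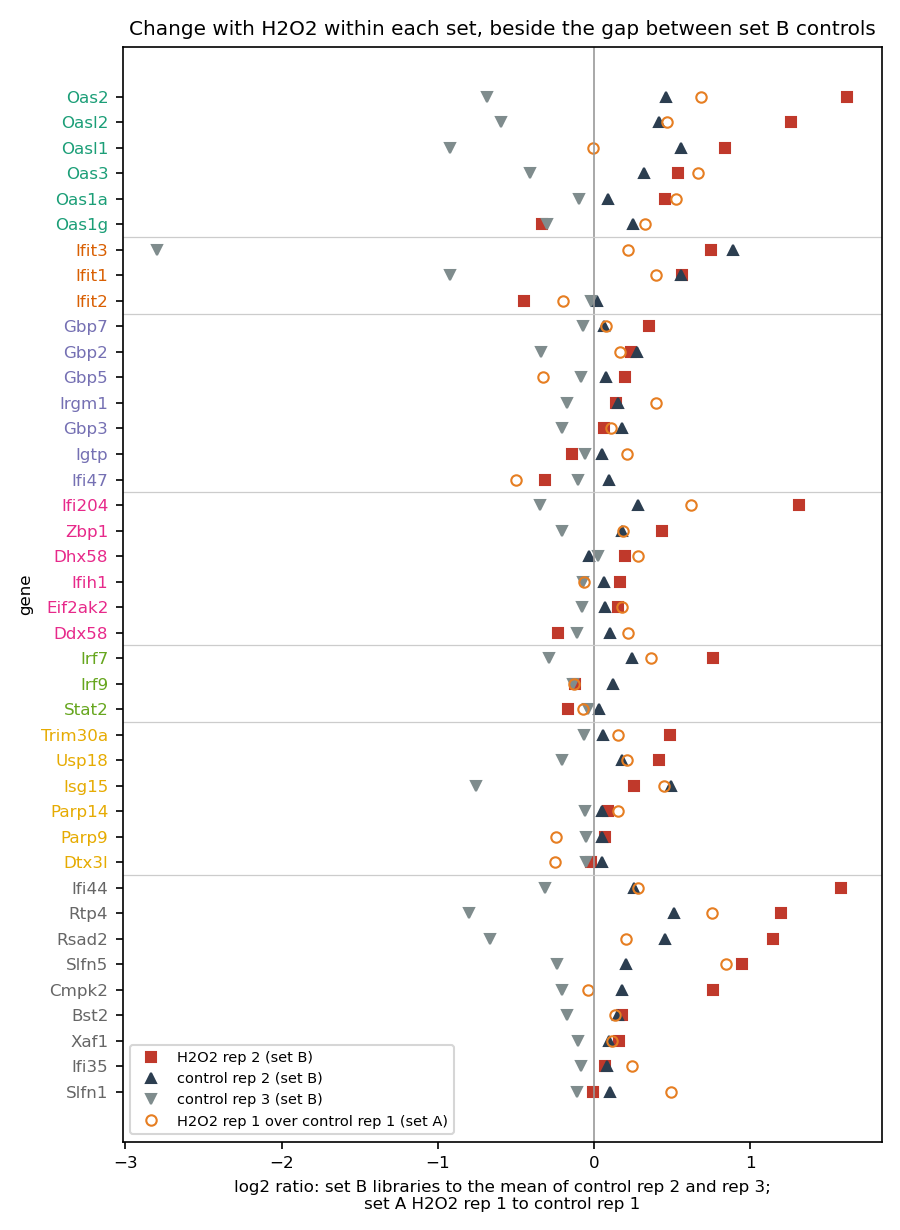
For each of the 40 genes, log2 ratio of the 3 set B libraries to the mean of control replicates 2 and 3 (filled marks), and log2 ratio of H2O2 replicate 1 to control replicate 1 in set A (open circles). Control replicate 3 (downward marks) lies left of control replicate 2 for 39 genes, and the H2O2 library of set B (squares) lies right of both controls for 25, where it does for 41.7% of all tested genes.

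Markers of other cell types and of the cell cycle also differed between the sets. Of all tested genes, 19.1% were called higher and 16.9% lower in set A, and 3.93% higher and 4.61% lower with H2O2. All 8 cell cycle markers were called higher in set A and lower with H2O2; their summed level was 346.5 and 1040 CPM in H2O2 and control replicate 1, and 171.0 CPM in H2O2 replicate 2 against 305.7 and 564.4 CPM in control replicates 2 and 3. Of 7 tested neutrophil markers 5 were called lower in set A and 1 lower with H2O2, with sums of 102.8 and 93.9 CPM in H2O2 and control replicate 1, and 518.5 CPM in H2O2 replicate 2 against 280.1 and 510.2 CPM in control replicates 2 and 3. All 5 mast cell and basophil markers were called lower in set A and lower with H2O2, with sums of 2.13 and 15.4 CPM in H2O2 and control replicate 1, and 6.15 CPM in H2O2 replicate 2 against 33.05 and 55.55 CPM in control replicates 2 and 3. Plasmacytoid dendritic cells, which make much type I interferon, have the defining marker Siglech, which was at 0 in every library, as was Klk1. The 5 plasmacytoid markers summed to 34.9 and 46.3 CPM in H2O2 and control replicate 1, nearly all of it Tcf4. In set B they summed to 40.3 CPM in H2O2 replicate 2 against 43.8 and 45.55 CPM in control replicates 2 and 3, again mostly Tcf4. Of 3 tested plasmacytoid markers 2 were called higher in set A, and Spib was called lower with H2O2. Ccr9 had 14 and 22 counts in H2O2 and control replicate 1, and 3 in H2O2 replicate 2 against 3 and 6 in control replicates 2 and 3. Spib had 22 and 71 counts in H2O2 and control replicate 1, and 11 in H2O2 replicate 2 against 46 and 37 in control replicates 2 and 3. All 5 tested macrophage markers had a positive log2 change with H2O2, with a median of 0.305. Each had an unadjusted p under 0.05 by edgeR, against 27.8% of all tested genes, and Cd68 was called higher. C1qa, also on the macrophage list, was too scarce to be tested and did not rise. It had 10 and 38 counts in H2O2 and control replicate 1, and 1 in H2O2 replicate 2 against 1 and 3 in control replicates 2 and 3. Between the sets Csf1r was called higher in set A and Fcgr1, itself inducible by interferon, lower. The 6 macrophage markers summed to 820.1 to 1168 CPM, and the 3 stromal ones to 76.45 to 116.8 CPM. Nearly all of the stromal sum was Pecam1, with 0 to 3 counts of Col1a1 and 0 to 6 of Col1a2 in a library. Sums of the 3 B cell, 3 erythroid and 4 T and natural killer cell markers stayed under 2 CPM in each library. The part of these differences in the levels of the 40 genes was not tested.

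Of 10 interferon genes listed, 4 had a row and these were at or near 0; the other 6 are not analysed here. Ifnb1 and Ifna4 had 0 counts in all 5 libraries, which allows up to 0.18 to 0.185 CPM in a library (3 counts; counting error only). Ifnk had 0 to 2 counts in a library. Ifng had 1 count in each H2O2 library, against 2, 5 and 3 counts in control replicates 1, 2 and 3. Of 16 interferon and receptor genes listed, 10 had a row and 6 were tested. None of the 6 was called with H2O2, and 1 had an unadjusted p under 0.05, against 27.8% of all tested genes. Ifnar1, a type I receptor chain, was the most abundant with a log2 change of 0.03, and Ifngr1 was 1.93-fold higher in set A. Of 14 receptor signalling genes 1 was called lower and none higher with H2O2, against 4.61% and 3.93% of all tested genes. This was Irf8, a factor of dendritic cell identity, lower by 0.45 ± 0.069 on the log2 scale. Jak2, the most abundant, had a log2 change of -0.23. The feedback inhibitor Socs3 was at 15.9 and 15.3 CPM in H2O2 and control replicate 1, and at 228.5 CPM in H2O2 replicate 2 against 226.7 and 188.3 CPM in control replicates 2 and 3. It was 13.9-fold lower in set A and was named after its values were seen.

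Genes that lead to interferon production moved both ways. Of 20 tested, 2 were called higher and 2 lower with H2O2, against 3.93% and 4.61% of all tested genes. Tlr13 and Tlr7, receptors for bacterial and viral RNA, rose by 0.61 ± 0.066 and 0.48 ± 0.092 on the log2 scale. Cgas, the sensor of cytosolic DNA, fell by 0.51 ± 0.12 and Tlr9, a receptor for unmethylated DNA, fell by 0.56 ± 0.13. Samhd1, the most abundant, had -0.24. Of 62 other interferon-stimulated genes tested, 6 were called higher and 4 lower with H2O2, against 3.93% and 4.61% of all tested genes. Their median log2 change was 0.11. Ifi207, a relative of Ifi204 on the same chromosome, rose by 0.88 ± 0.15 and Lgals3bp by 0.44 ± 0.083, while Stat4 fell by 0.92 ± 0.083 and Tgtp1, whose reads may be shared with its near copy Tgtp2, fell by 1.15 ± 0.18. Tapbp, the most abundant, had 0.04. Between the sets 21 of these 62 were called higher in set A and 6 lower, against the same 19.1% and 16.9% of all genes.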

How the data were processed

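RNA from 6 samples, 3 labelled H2O2 and 3 labelled control, was sequenced on DNA nanoballs, per the labels' protocols. Each deposited file lists estimated counts of reads by gene with no normalization, per the file headers (8.38% to 9.03% of a library's values are not whole). HISAT, Bowtie2 and GRCm38.p6 are named, without roles, per the submitters' processing notes. For the counter, annotation release and strand setting the entry is: not given in the sources used here. Symbols came from the RefSeq table of GRCm38.p6, which matched 17520 of 17567 rows (99.73%); the 47 others held 0.13% of the counts.

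Counts were rounded. EdgeR 4.0.16 (R 4.3.3) kept genes by filterByExpr (minimum count 10, minimum total 15), scaled by TMM and fitted treatment and set (2 residual degrees of freedom) with the quasi-likelihood test; adjustment was Benjamini-Hochberg over 12209 genes, and the SE is the absolute log2 change over the square root of F. Set A holds libraries with at least 100 counts over 4 Y-linked genes. Totals were 16232604 to 16672491 counts per library.

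Exon lengths and the words of 50 bases shared between transcripts came from GENCODE M21 (GRCm38). The fit was tested on simulated data with known changes. Alternatives were RLE scaling, no filter, unrounded counts, DESeq2 1.42.0, limma-voom (limma 3.58.1), no set term, a replicate block and leaving out each library; DESeq2 and limma-voom without the set term were added after seeing the data.

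The 40 genes, the related lists, the set term and the tests were chosen with earlier results of these data known. Per-library values were set to be given for genes called with H2O2, genes past the interaction test and the most abundant gene of each group. Those of further genes (such as Gbp7, Rsad2, Irf7, Usp18, Slfn1, Trim30a, Ifi47 and Socs3) are given because of their values. In the related lists the rule takes the most abundant gene and, each way, up to 2 called genes of lowest p.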

Additional observations from a re-analysis of the deposited data

How the results depend on the processing

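Slfn5, Oas1a and Ifi204 remained called under RLE scaling, with unrounded counts, with DESeq2 (4 of the 40 called, Oas2 in addition) and with limma-voom. Without the filter on low counts 60 genes were called higher, 42 lower and 0 of the 40, whose adjusted p was 0.0513 (Slfn5), 0.056 (Oas1a) and 0.0815 (Ifi204); more genes are then tested. Without the set term edgeR and limma-voom each called 0 genes higher, 0 lower and 0 of the 40, and DESeq2 66, 39 and 0. The log2 change of Ifit2 then changed sign in edgeR, to 0.006. It stayed negative in DESeq2 (-0.007) and limma-voom (-0.039). Leaving out each library in turn gave 1 to 1248 genes higher, 0 to 816 lower and 0 to 7 of the 40 higher. The 0 came without H2O2 replicate 2, where the fit compares only H2O2 replicate 1 with control replicate 1. Without control replicate 1 or H2O2 replicate 1 the 7 and 5 calls compare only libraries of set B.

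The titles give both groups the same suffixes. Same-suffix libraries deviated together (r = 0.81 and 0.714 across genes), but so did control replicate 3 and H2O2 replicate 2 (0.66), as the sets alone would give, so the numbers were not taken to pair samples. The replicate block in place of the set term called 220 genes higher, 334 lower and 4 of the 40. These were Slfn5 and Ifi204, shared with the reported calls, and Oas2 and Oasl2; Oas1a had an adjusted p of 0.0562.

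Between the sets, leaving out a library gave 1419 to 2312 genes higher, 14 to 21 of the 40 higher and 2 to 4 lower in set A. The interaction passed for 2 of all genes as reported, 0 with RLE scaling, 0 without the filter and 12 with unrounded counts, and for 0 of the 40 in each. The cause of these shifts was not tested. Depth limits Ifit3 and Ifi44, which rest on under 15 counts in each set B library.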
